A study of Mus musculus with 768 samples.

Results

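The genes described here are 43 stress-response genes: 32 immediate early genes and 11 heat shock genes. They were taken as the rows with those symbols in both deposited count tables, and all 43 of the 51734 listed features (after rows with the same symbol were summed) were found in both. No level was required for membership, but the members were chosen with earlier results of these data known. The study sequenced single mouse endothelial cells with Smart-seq2, a method that copies whole transcripts, and sorted them as CD45-CD31+, which leaves out leukocytes and keeps endothelium. LN_HEV cells came from lymph node and carried MECA-79, the sulphated sugar epitope that marks high endothelial venules (HEVs), the vessels through which lymphocytes leave the blood. TU_HEV cells were MECA-79+ and came from PyMT tumours, a mouse mammary tumour driven by the polyoma middle T oncogene. TU_EC cells were MECA-79- and came from PyMT tumours too. No treatment, strain, sex or age is given for any group. The protocol names an enzyme mix with mechanical dissociation for the tumours and gives no separate step for the lymph nodes, so tissue and preparation cannot be told apart.

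Immediate early genes are transcribed within minutes of a signal from existing proteins. They encode AP-1 factors (the Fos and Jun families), EGR and NR4A factors, and brakes such as the DUSP phosphatases that switch MAP kinases off and Zfp36, which directs mRNA decay. Heat shock genes encode chaperones that refold or hold damaged proteins, and the inducible ones are driven by HSF1 through heat shock elements in their promoters. Endothelial cells use the immediate early genes in responses to shear stress, growth factors and cytokines, and isolation of cells from tissue is known to switch on both sets.

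The promoters are shown here because the heat shock and immediate early sets differed in the motifs they held. RefSeq promoter windows of GRCm38.p6, from 250 bases before to 50 after the start, were at hand for 36 members (27 immediate early, 9 heat shock). None was at hand for Fosl1, Egr1, Egr3, Ier2, Myc, Hspa8 and Hsp90aa1, which were not searched. A heat shock element was searched on both strands as GAANNTTC or TTCNNGAA. It was found in 8 of the 9 heat shock members (88.9%, all but Dnajb1), in 3 of the 27 immediate early members (11.1%: Fosl2, Jun and Egr2) and in 17.0% of all 27025 genes with a window. The windows of Hspd1 and Hspe1 overlap on opposite strands and hold the same elements, so their matches are not separate. The windows of Hspa1a (chr17:34972157-34972406, minus strand) and Hspa1b (chr17:34959239-34959488, minus strand), a duplicated pair for inducible HSP70, differed at 4 of 300 bases. Hspb1 is a small heat shock protein (chr5:135887669-135887918, plus strand). Dusp5, a nuclear ERK phosphatase (chr19:53528895-53529144, plus strand), and Zfp36 (chr7:28379229-28379478, minus strand) held CArG boxes, the motif of serum response factor. In these sequences, the 250 bases before the start, written 5′ to 3′, capitals mark the heat shock elements of the first 3 and the CArG boxes of the last 2.
Hspa1a: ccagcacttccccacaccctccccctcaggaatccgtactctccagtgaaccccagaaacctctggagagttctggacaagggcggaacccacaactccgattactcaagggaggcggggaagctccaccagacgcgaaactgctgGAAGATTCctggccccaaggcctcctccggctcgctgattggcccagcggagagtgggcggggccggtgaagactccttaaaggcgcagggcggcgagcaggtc
Hspa1b: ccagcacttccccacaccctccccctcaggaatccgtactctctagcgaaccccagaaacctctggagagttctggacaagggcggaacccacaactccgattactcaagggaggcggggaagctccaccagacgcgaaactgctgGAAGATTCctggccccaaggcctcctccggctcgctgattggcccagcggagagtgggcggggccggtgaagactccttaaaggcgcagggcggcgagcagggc
Hspb1: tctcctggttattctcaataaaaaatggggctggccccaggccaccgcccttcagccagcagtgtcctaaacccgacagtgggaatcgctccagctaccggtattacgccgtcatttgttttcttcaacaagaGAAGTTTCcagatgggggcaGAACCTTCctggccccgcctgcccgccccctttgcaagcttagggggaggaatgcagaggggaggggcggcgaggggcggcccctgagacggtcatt
Dusp5: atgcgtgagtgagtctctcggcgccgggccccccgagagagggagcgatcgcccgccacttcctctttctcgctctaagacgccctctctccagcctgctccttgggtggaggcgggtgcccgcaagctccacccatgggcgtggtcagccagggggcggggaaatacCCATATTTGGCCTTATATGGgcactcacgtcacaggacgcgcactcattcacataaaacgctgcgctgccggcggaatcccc
Zfp36: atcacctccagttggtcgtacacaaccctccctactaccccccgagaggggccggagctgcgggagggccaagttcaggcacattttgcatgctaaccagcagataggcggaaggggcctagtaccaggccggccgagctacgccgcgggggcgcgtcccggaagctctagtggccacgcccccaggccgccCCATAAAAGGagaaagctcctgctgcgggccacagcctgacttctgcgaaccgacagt
CArG boxes were found in 3 of 27 immediate early members (Egr2, Dusp5 and Zfp36), in 0 of 9 heat shock members and in 1.81% of all genes. The cAMP response element TGACGTCA was in 3 of 27 (Maff, Dusp1 and Btg2), in 0 of 9 heat shock members and in 2.03% of all genes. The AP-1 site TGANTCA was in 0 of 27, in Bag3 alone among the 9, and in 8.97% of all genes. Hspa1a and Hspa1b had the same GAAGATTC at the same distance before the start. A match is a run of letters and no record of binding.

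Of 768 wells on 8 plates, these cells were kept: 63 and 79 of LN_HEV (pool1 and pool2), 50 and 48 of TU_HEV (pool3 and pool4), and 68, 81, 82 and 72 of TU_EC (poolA to poolD). Median counts per cell were 1056162, 1431389 and 625611. All 5 pan-endothelial markers were above 10 CPM in every group, and leukocyte, epithelial and mural lists had 0 of 6 genes at 10 CPM in each. The summed red cell and platelet list was 1817 CPM in LN_HEV (Ppbp at 0) against 6.45 in TU_HEV and 2.11 in TU_EC. The lymphatic list was 13.0, 34.3 and 391 CPM. The part of these levels in the results was not tested. The tumour cells labelled HEV held little of the lymph node HEV genes: Glycam1 was 64784 CPM in LN_HEV and 127.7 in TU_HEV. Before any comparison, 11 pool1 libraries were left out. Each held 97.7% or more of the genes of at least 1 TU_HEV library at equal or higher count. They held 16 TU_HEV libraries between them. No other pair reached 95% among libraries of the same count table that passed the filters on counts, genes and mitochondrial share. Pairs across the count tables were not compared. TU_EC cells lie in another file and library series than the HEV cells, so that difference and the cell type cannot be told apart.

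Levels are CPM, the counts of a gene in a plate or group scaled to a total of 1000000. No label links a cell to an animal. A group therefore counts as 1 sample, there is no p-value, and plates are the repeats shown. Intervals cover counting error only, and PCR reads without molecular identifiers are not independent molecules. A member is called higher or lower at a 2-fold difference of the group sums. Fold values of a gene compare it with itself across groups, never with another gene. Plates of a group may share animals, and the range over pairs of plates is a spread and no test.

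In tumour HEV cells 28 of the 43 genes were 2-fold higher than in lymph node HEV cells and 0 were lower. Of all 8652 features with a mean of 10 CPM over the groups, 20.8% were higher and 6.51% lower. The same 2-fold difference held in all 4 pairs of plates for 20 members, against 10.7% of these features, and for 0 members in the lower direction, against 2.64%. Fosl1, Maff, Egr2, Egr3 and Gadd45a lay under that mean. Of all features with 3 counts in a group, 29.4% were higher and 21.4% lower, and in all pairs 9.09% and 6.14%. By set, 23 of 32 immediate early genes and 5 of 11 heat shock genes were higher, with median log2 ratios of 1.70 and 0.90, beside 0.30 for all features. Summed over the 32 immediate early genes, the level was 7696 CPM in LN_HEV (5708 and 9075 by plate) and 13956 in TU_HEV (13160 and 14586; each above both LN_HEV plates). The heat shock sum was 1726 CPM in LN_HEV and 3484 in TU_HEV. The lymph node plates differed from each other: without pool2 the medians were 2.25 and 2.03 and 36 members were higher, where all features had a median of 0.66 and 35.3% were higher. Without pool1 22 members were higher, where all features had a median of 0.13 and 18.2% were. With size factors by the median of ratios, 24 members were higher and 0 lower, against 14.6% and 10.9% of features, and Dusp6, Zfp36, Btg2 and Gadd45a were no longer 2-fold higher.

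Against the MECA-79- tumour cells, 22 members were higher in TU_HEV and 1 (Maff) was lower. In that comparison 18.7% of all features were higher and 5.12% lower. In all 8 pairs of plates 11 members were 2-fold higher, against 5.63% of features, and 0 lower, against 1.7%. Of features with 3 counts in a group, 26.9% were higher and 22.8% lower, and in all pairs 4.72% and 2.34%. The median log2 ratio was 1.58 for the immediate early genes and 0.76 for the heat shock genes, beside 0.39 for all features. With the size factors, which put the median of all features at -0.01, they were 1.17 and 0.35, and 19 members were higher and 1 lower, against 9.54% and 9.49% of features. Jund, Atf3 and Btg1 were then no longer 2-fold higher. LN_HEV against TU_EC gave 3 members higher (Fosb, Egr1 and Ier2), where 14.7% of all features were, and 15 lower, where 14.3% were. In all 8 pairs 9 were lower (Atf3, Maff, Nr4a1, Klf6, Dusp2, Dusp5, Rasgef1b, Hspa1a and Hspa1b), against 7.62% of features, and 0 were higher, against 5.22%. Of features with 3 counts in a group, 24.6% were higher and 27.7% lower, and in all pairs 5.68% and 5.65%. With the 11 pool1 libraries kept, 5 members were higher and 9 lower, against 14.7% and 11.4% of features. The 3 comparisons share their groups, so they are not independent of each other. Ribosomal RNA took 13.5% of counts in LN_HEV (23.8% in pool1, 6.39% in pool2), 8.09% in TU_HEV and 25.3% in TU_EC. Its part in these ratios was not tested.

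**Figure D1:**
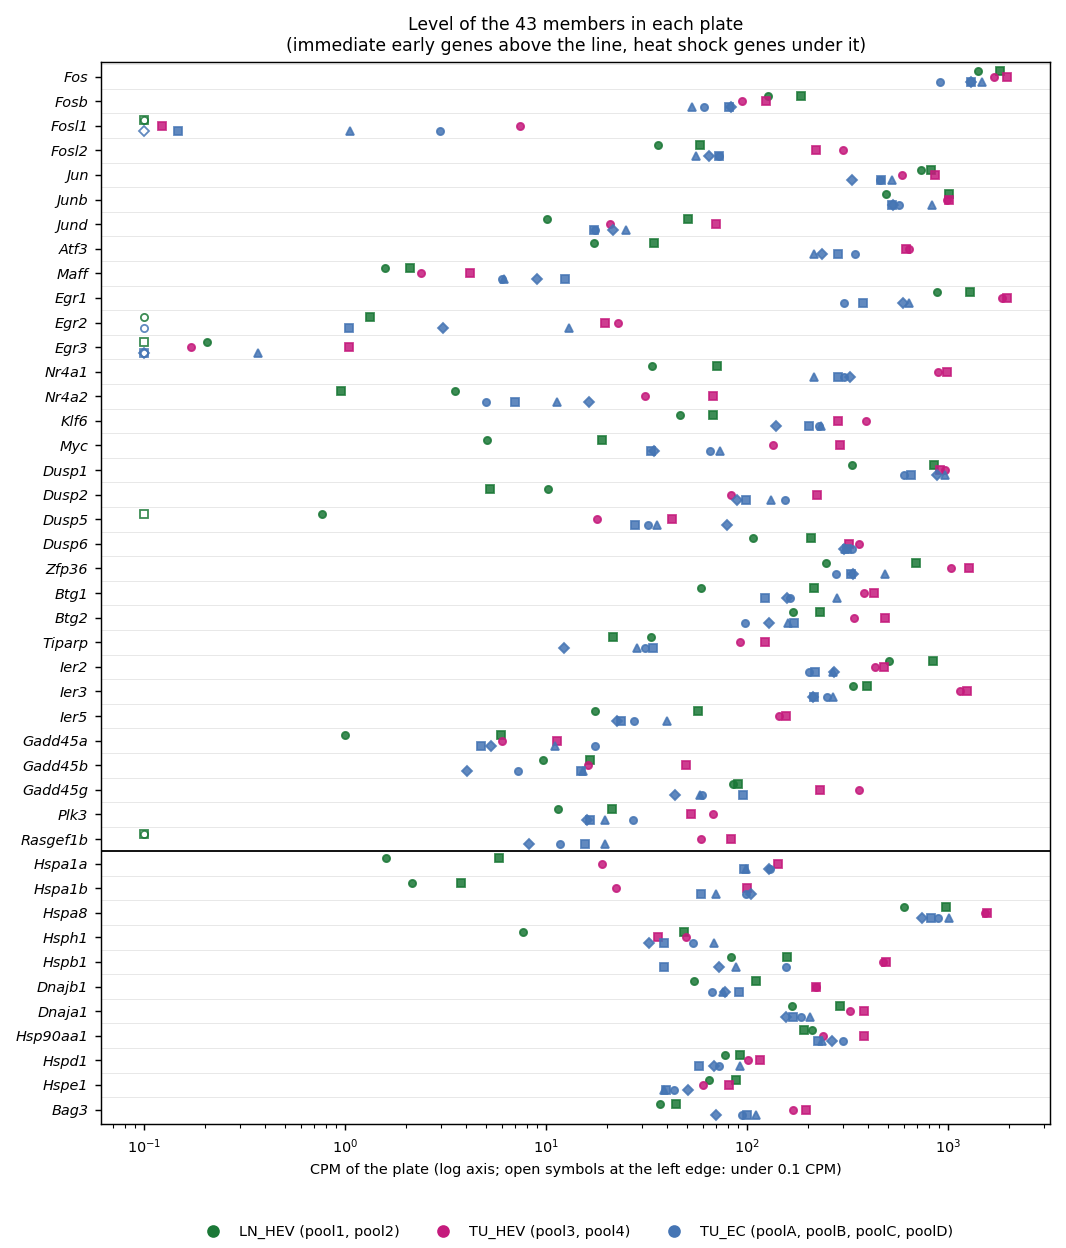
Level of each member in each of the 8 plates, in CPM on a log axis, coloured by group; open symbols lie under 0.1 CPM. The group levels of Fos, Jun and Junb are within 2-fold of each other, while Atf3, Nr4a1, Myc, Dusp2, Rasgef1b, Hspa1a and Hspa1b are far lower in the LN_HEV plates.

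Among the AP-1 genes, Fos, Jun and Junb were within 2-fold in all 3 comparisons. Fos, the partner of Jun in the classical AP-1 dimer, was 1405 and 1819 CPM in the LN_HEV plates, 1692 and 1968 in the TU_HEV plates and 909.7, 1306, 1477 and 1302 in the TU_EC plates. The HEV groups overlapped, and the TU_HEV to LN_HEV ratio was 1.12 (counting interval 1.11 to 1.13). Jun was 731 and 819.8 CPM in the LN_HEV plates, 593 and 858 in those of TU_HEV and 459, 465, 523 and 331.4 in those of TU_EC. Its TU_EC plates were the lowest 4, and the HEV plates overlapped each other, with a ratio of 0.946. Junb (799 and 998 CPM in LN_HEV and TU_HEV) and Jund (34.1 and 48.4 CPM) were also within 2-fold between the HEV groups, while Jund was 2.38-fold higher in TU_HEV than in TU_EC, with overlapping plates (log2 0.84 with size factors). Fosb was 2.32-fold higher in LN_HEV than in TU_EC.

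Atf3, a CREB-family factor induced by stress, did not follow Fos. It was 17.4 and 34.3 CPM in the LN_HEV plates, 638 and 617 in those of TU_HEV and 344.8, 284.1, 213.9 and 234.7 in those of TU_EC. No plates of different groups overlapped. Atf3 was 22.9-fold higher in TU_HEV than in LN_HEV (range over plate pairs 18.0 to 36.7) and 2.34-fold higher than in TU_EC (1.79 to 2.98), or log2 0.82 with size factors. One LN_HEV cell held 32.8% of its LN_HEV counts. Fosl2, a Fos relative whose mRNA comes later than that of Fos, was 36.1 and 58.3 CPM in the LN_HEV plates, 301.2 and 220.1 in those of TU_HEV and 72.4, 72.5, 55.6 and 64.7 in those of TU_EC. It was the AP-1 member that stood 2-fold apart from both other groups in every pair of plates, 5.20-fold and 3.87-fold higher in TU_HEV. Maff, a small Maf factor, reached at most 12.4 CPM in a plate and was 2.50-fold lower in TU_HEV than in TU_EC, and Fosl1 was at 0 counts in LN_HEV. In TU_HEV 97.9% of the Fosl1 counts lay in 1 cell, and without the top cell of each group its TU_HEV to TU_EC log2 ratio went from 1.74 to -2.26.

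**Figure D2:**
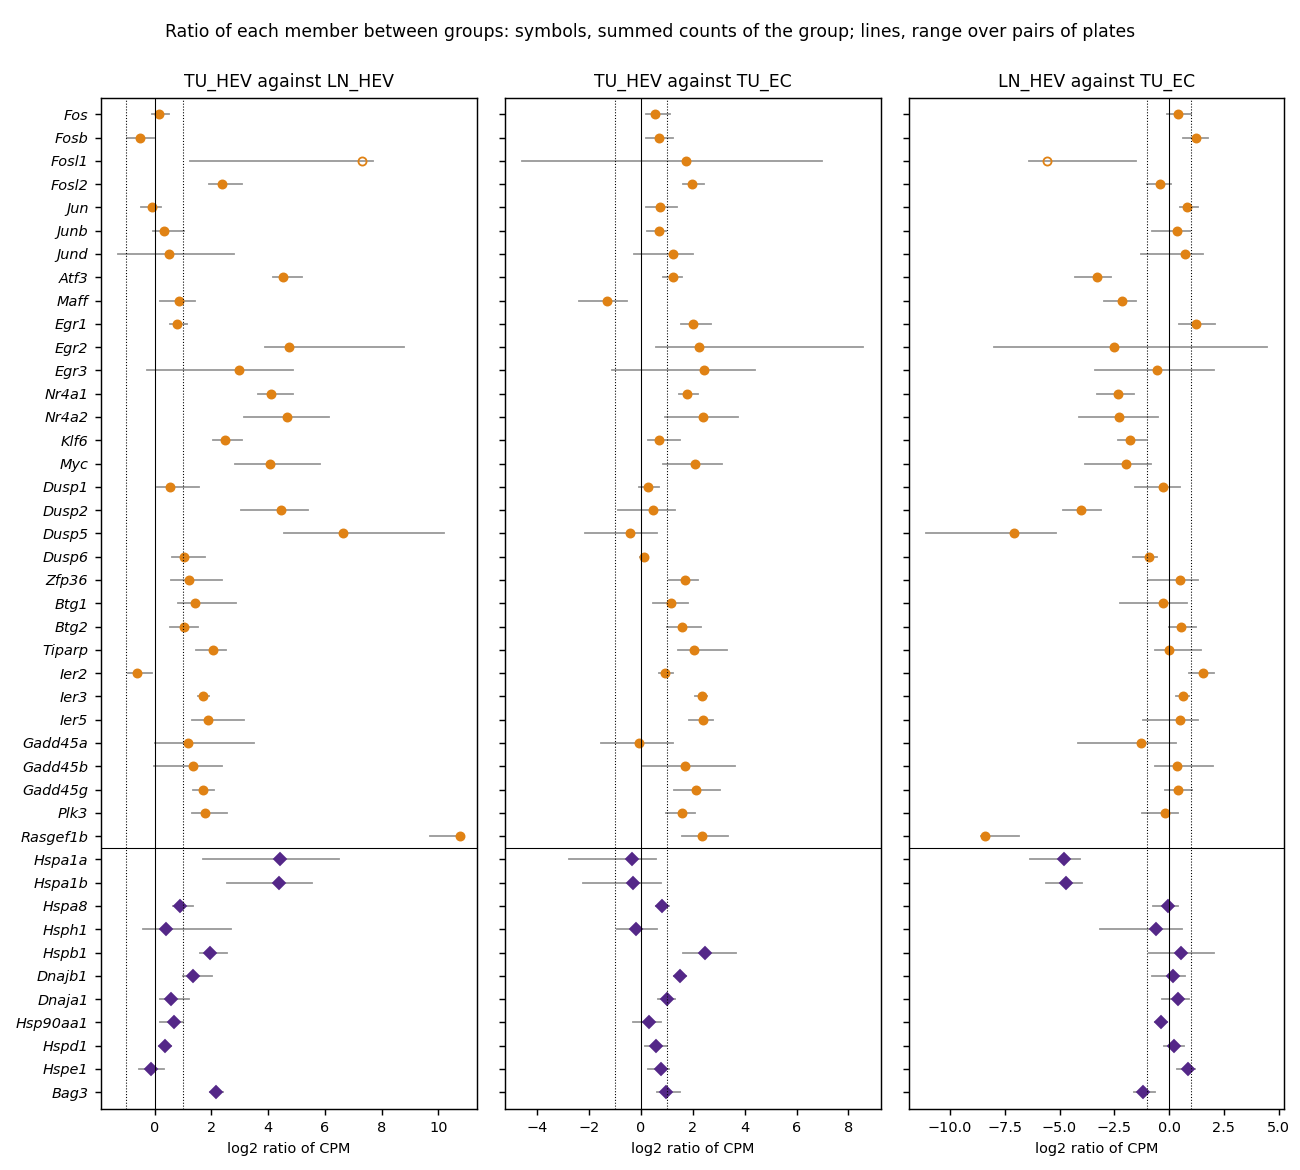
Log2 ratio of CPM for each member in the 3 comparisons; symbols are summed counts (open where a group had 0 counts and the ratio is a bound from 3 counts), grey lines the range over pairs of plates, dotted lines 2-fold. TU_HEV against LN_HEV is mostly right of the 2-fold line for NR4A, Myc and the DUSP genes and near 0 for Fos, Jun and Junb.

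Of the EGR and NR4A factors, Egr1 alone was within 2-fold between the HEV groups. Egr1, a zinc finger factor, was 879 and 1281 CPM in the LN_HEV plates, 1853 and 1957 in those of TU_HEV and 302.5, 379.2, 638 and 597 in those of TU_EC. The groups did not overlap, and TU_HEV was 1.71-fold higher than LN_HEV, under the 2-fold line, and 3.97-fold higher than TU_EC (2.91 to 6.47 over plate pairs). Nr4a1, an orphan nuclear receptor, was 33.6 and 71.1 CPM in the LN_HEV plates, 895 and 985 in those of TU_HEV and 302.6, 281.7, 215.97 and 324.2 in those of TU_EC. It was 17.0-fold higher in TU_HEV than in LN_HEV (12.6 to 29.3) and 3.39-fold higher than in TU_EC (2.76 to 4.56), with 3 separate ranges. Its relative Nr4a2 was 3.53 and 0.95 CPM in the LN_HEV plates, 31.1 and 67.4 in those of TU_HEV and 5.04, 7.00, 11.3 and 16.3 in those of TU_EC. The TU_HEV value of Nr4a2 leaned on 1 cell with 51.1% of its counts. Without the top cell of each group its log2 ratio to LN_HEV was 4.23 in place of 4.68, and with the 11 pool1 libraries kept it was 2.08. Egr2 reached at most 22.8 CPM in a plate and Egr3 at most 1.04.

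Klf6 and Myc, a Krüppel-like factor and a growth regulator, showed the low lymph node level too. Klf6 was 46.5 and 67.7 CPM in the LN_HEV plates, 392 and 281.8 in those of TU_HEV and 228.6, 203.97, 232.1 and 139.5 in those of TU_EC. Myc was 5.10 and 19.0 CPM in the LN_HEV plates, 133.8 and 290.2 in those of TU_HEV and 65.6, 33.3, 73.3 and 34.2 in those of TU_EC. The TU_HEV plates were the highest for both, 5.60-fold over LN_HEV for Klf6 (4.16 to 8.43) and 16.6-fold for Myc (7.05 to 56.9). Against TU_EC the Klf6 difference was 1.63-fold, and Myc was 4.28-fold higher.

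The phosphatases that restrain MAP kinases did not move as a block. Dusp1, which acts on p38, JNK and ERK, was 637 CPM in LN_HEV, against 934 in TU_HEV and 777 in TU_EC, within 2-fold throughout. Dusp2, a nuclear phosphatase, was 10.2 and 5.28 CPM in the LN_HEV plates, 83.1 and 222.4 in those of TU_HEV and 153.5, 98.5, 132.2 and 88.6 in those of TU_EC. Both tumour groups overlapped each other and lay above LN_HEV, 22.1-fold for TU_HEV and 16.2-fold for TU_EC. Dusp5 was 31.4 CPM in TU_HEV and 42.5 in TU_EC and had 45 counts in LN_HEV, all of them in 1 cell. Dusp6, the cytoplasmic ERK phosphatase, was 166.8, 339.01 and 314.6 CPM in LN_HEV, TU_HEV and TU_EC. None of the 4 phosphatases was 2-fold apart between TU_HEV and TU_EC.

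Zfp36, Tiparp, Btg1 and Btg2 were each 2-fold higher in TU_HEV than in each other group. But with size factors Zfp36 (log2 0.90) and Btg2 (0.74) fell short of 2-fold against LN_HEV and Btg1 (0.76) against TU_EC. Zfp36 was 246.2 and 695 CPM in the LN_HEV plates, 1030.4 and 1276 in those of TU_HEV and 276.3, 328.1, 486 and 336.7 in those of TU_EC. It was 3.24-fold higher in TU_HEV than in TU_EC (2.12 to 4.62), and 2.28-fold higher than in LN_HEV (1.48 to 5.18 over plate pairs, so not 2-fold in each). Tiparp, an ADP-ribosyltransferase, was 33.2 and 21.6 CPM in the LN_HEV plates, 91.9 and 123.2 in those of TU_HEV and 30.9, 33.8, 28.3 and 12.2 in those of TU_EC. Both TU_HEV plates were above all 6 others, 4.15-fold over LN_HEV and 4.09-fold over TU_EC. Btg1 (151.3, 408 and 181.8 CPM in LN_HEV, TU_HEV and TU_EC) and Btg2 (205.6, 419 and 141.3), antiproliferative adaptors of mRNA deadenylation, were highest in TU_HEV as well.

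The 3 IER genes, named for their early response, split between the groups. Ier2 was 703 CPM in LN_HEV, against 457 in TU_HEV and 240.1 in TU_EC, highest in lymph node and 2.93-fold above TU_EC. Ier3, a survival factor, was 334.6 and 396 CPM in the LN_HEV plates, 1141 and 1247 in those of TU_HEV and 250.1, 215.1, 268.7 and 211.8 in those of TU_EC. The 3 groups of plates were separate, and TU_HEV was 3.23-fold above LN_HEV (2.88 to 3.73) and 5.07-fold above TU_EC (4.25 to 5.89). Ier5 was 17.4 and 57.2 CPM in the LN_HEV plates, 143.6 and 155.9 in those of TU_HEV and 27.3, 23.6, 39.8 and 22.6 in those of TU_EC, and LN_HEV and TU_EC overlapped.

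The GADD45 stress sensors and the kinase Plk3 were all 2-fold higher in TU_HEV than in LN_HEV, and all but Gadd45a were 2-fold higher than in TU_EC. Gadd45a reached at most 17.5 CPM in a plate, and its log2 ratio to LN_HEV was 1.19 (0.013 at the lowest over plate pairs) and 0.90 with size factors. Gadd45b had a log2 ratio to LN_HEV of 1.35, with plate pairs down to -0.022, and was 13.7, 34.9 and 10.8 CPM in LN_HEV, TU_HEV and TU_EC. Gadd45g, which activates stress MAP kinase signalling, was 84.6 and 90.5 CPM in the LN_HEV plates, 360.05 and 231.6 in those of TU_HEV and 59.8, 95.6, 58.3 and 43.8 in those of TU_EC. Plk3, a polo-like kinase, was 11.4 and 21.4 CPM in the LN_HEV plates, 67.3 and 52.5 in those of TU_HEV and 27.1, 16.6, 19.7 and 16.0 in those of TU_EC. For Gadd45g and Plk3 the LN_HEV and TU_EC plates overlapped and both TU_HEV plates were higher, 3.27-fold and 3.42-fold over LN_HEV. Rasgef1b, a guanine exchange factor for Rap and Ras proteins, was almost missing from lymph node: 0 and 0.0712 CPM in the LN_HEV plates (6 counts in all), 59.0 and 83.2 in those of TU_HEV and 11.7, 15.6, 19.5 and 8.17 in those of TU_EC. It was 5.16-fold higher in TU_HEV than in TU_EC (3.02 to 10.2). In thinned cells it was counted in 0 of the LN_HEV cells (upper 95% Clopper-Pearson limit 2.58%), 27.6% of TU_HEV and 11.3% of TU_EC.

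Of the heat shock genes, only the inducible HSP70 pair was 2-fold lower in LN_HEV than in both tumour groups in every pair of plates. Bag3 was also 2-fold lower in LN_HEV than in TU_EC by the group sums (log2 -1.20), with plate pairs from -1.58 to -0.66. Hspa1a was 1.59 and 5.82 CPM in the LN_HEV plates, 18.9 and 142.7 in those of TU_HEV and 129.96, 96.4, 98.4 and 129.03 in those of TU_EC. Hspa1b was 2.14 and 3.79 CPM in the LN_HEV plates, 22.3 and 99.8 in those of TU_HEV and 99.1, 58.8, 69.8 and 104.3 in those of TU_EC. LN_HEV lay below every tumour plate for both genes. The pair was 27.4-fold (Hspa1a) and 26.1-fold (Hspa1b) lower in LN_HEV than in TU_EC. TU_HEV pool3 was far below pool4, and the TU_HEV and TU_EC sums were within 2-fold of each other. The 2 genes share nearly all their coding sequence, so how the counts were divided between them is uncertain. They lay in few cells: 5.67% of thinned LN_HEV cells, 20.4% of thinned TU_HEV cells and 17.3% of TU_EC cells had Hspa1a, and 1 TU_HEV cell held 38.6% of its TU_HEV counts.

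Hspa8, the constitutive HSP70, was 606 and 981 CPM in the LN_HEV plates, 1524 and 1554 in those of TU_HEV and 889.6, 818, 1010.2 and 740.2 in those of TU_EC, and was within 2-fold in every comparison. Hspb1 was 83.1 and 157.5 CPM in the LN_HEV plates, 477 and 490.4 in those of TU_HEV and 156.2, 38.5, 88.3 and 72.6 in those of TU_EC. Hspb1 stood apart: 3.81-fold over LN_HEV (3.03 to 5.90) and 5.61-fold over TU_EC (3.05 to 12.7), and its 2 TU_HEV plates were above all others. Dnajb1, the HSP40 that delivers clients to HSP70, was 54.1 and 110.5 CPM in the LN_HEV plates, 219.9 and 221.05 in those of TU_HEV and 66.9, 91.4, 75.4 and 77.3 in those of TU_EC. The TU_HEV level was 2.82-fold above TU_EC in a narrow range (2.41 to 3.31) and 2.52-fold above LN_HEV. Bag3, a co-chaperone of HSP70, was 37.0 and 44.0 CPM in the LN_HEV plates, 169.7 and 195.8 in those of TU_HEV and 94.7, 100.01, 110.999 and 69.7 in those of TU_EC. All 3 groups were separate for Bag3, with TU_HEV 4.48-fold above LN_HEV (3.85 to 5.29). Hsph1, Dnaja1, Hsp90aa1, Hspd1 and Hspe1 (HSP110, HSP40, HSP90 and the mitochondrial chaperonin with its co-chaperonin) stayed within 2-fold in all 3 comparisons. Hspd1 and Hspe1 overlap head to head in the annotation, and the strand setting of the counting is not given in the sources used here.

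Genes of the same kind outside the 43 gave a comparison. Of all features with a mean of 10 CPM, 20.8% were higher and 6.51% lower in TU_HEV than in LN_HEV. Against TU_EC 18.7% were higher and 5.12% lower. The lists below were not held to that mean. Of features with 3 counts in a group the shares were 29.4% and 21.4% against LN_HEV, and 26.9% and 22.8% against TU_EC. Of 38 other immediate early genes in the files, 25 were 2-fold higher and 2 lower in TU_HEV than in LN_HEV, and the median log2 ratio was 1.46. Among these, Hbegf, a growth factor, was 119.2-fold, Crem 18.2-fold, Ctgf 9.82-fold and Cyr61 9.15-fold higher. Against TU_EC, 17 of the 37 with counts in either group were higher and 1 lower, with Sik1, a kinase, 11.6-fold higher. Of 34 other heat shock and chaperone genes with counts, 5 were higher and 1 lower in TU_HEV than in LN_HEV, a median of 0.27 beside 0.30 for all features. Serpinh1, a collagen chaperone, was 5.47-fold higher. Of 16 unfolded protein response genes, 1 was higher and 1 lower, and of 15 upstream kinases and factors 1 was higher and 0 lower.

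The same genes were counted in different shares of cells. Each cell was thinned to 100000 counts, which leaves 62 and 79 cells in the LN_HEV plates, 98 TU_HEV cells and 300 TU_EC cells. Fos was counted in 90.1% of LN_HEV cells (83.9 to 94.5%), 79.6% of TU_HEV (70.3 to 87.1%) and 56.0% of TU_EC (50.2 to 61.7%). Without thinning, its lowest, median and highest cell were 0, 1201 and 6472 CPM in LN_HEV, 0, 1445 and 7680 in TU_HEV, and 0, 54.7 and 15722 in TU_EC. Cells of a group share their source, so these shares are descriptions and their intervals cover the counting of cells only. Egr1 was in 86.5%, 76.5% and 46.3% of cells of LN_HEV, TU_HEV and TU_EC. Atf3 followed another order, 15.6%, 57.1% and 38.7%, and Nr4a1 was in 21.3%, 63.3% and 52.7%. Myc was in 5.7%, 46.9% and 24.3%. Hspa8 was in 98.6%, 100% and 89.3%. A level in few cells and fewer transcripts per cell are not separated by the summed counts.

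**Figure D3:**
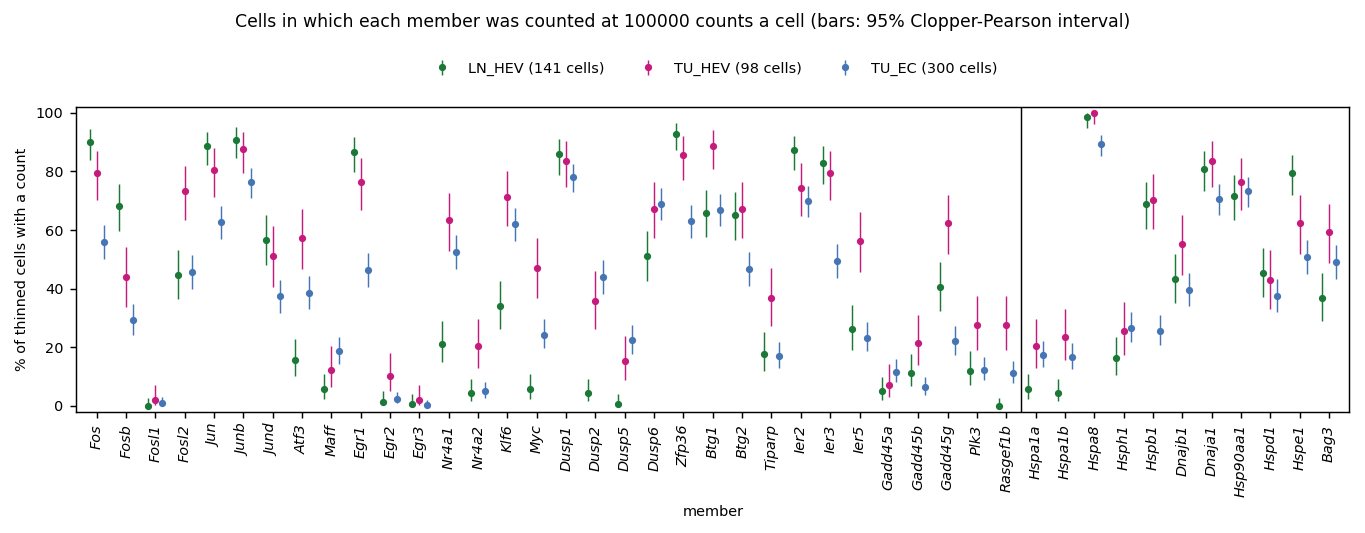
Share of cells in which each member had a count after thinning to 100000 counts, with 95% Clopper-Pearson intervals, for the thinned cells of each group. Fos, Jun, Egr1 and Ier2 were counted in most LN_HEV cells, Atf3, Myc and Rasgef1b in few of them.

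Which cells held many of these genes was asked by counting, per thinned cell, the immediate early members with a count. The median was 13 of 32 in LN_HEV, 17 in TU_HEV and 11 in TU_EC, and the highest were 20, 26 and 23. Cells with 16 to 23 members made up 15.6% of LN_HEV, 50.0% of TU_HEV and 29.7% of TU_EC, and 24 or more were seen only among TU_HEV cells, 7 of 98. Those 7 cells were all in pool4 and had a median of 5436 genes before thinning. In LN_HEV 0 cells reached 24, which allows a share of up to 2.58% by the same Clopper-Pearson limit, and in TU_EC 0 of 300, up to 1.22%. The immediate early score, the mean of log2(CPM + 10) over the 32 genes, ran in LN_HEV from 3.46 over a median of 5.36 to 6.68. Its interquartile range there was 0.82, the narrowest of the groups. TU_HEV scores ran from 3.52 over 6.20 to 8.40, with an interquartile range of 2.17. TU_EC scores ran from 3.45 over 4.69 to 7.55, with 1.48. The summed CPM of the 32 genes did not give that order of spread. In LN_HEV cells it ran from 100 to 26290, with an interquartile range of 5930, against 18232.5 in TU_HEV and 5827.5 in TU_EC. The mean score was 0.72 higher in TU_HEV than in LN_HEV (0.47 to 1.03 over plate pairs) and 1.05 higher than in TU_EC (0.92 to 1.24).

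Cell quality went with the score in the tumour groups. TU_EC cells with 0 to 7 members had a median of 1791 genes and 7.19% mitochondrial counts, against 4028 genes and 2.26% in those with 16 to 23. In LN_HEV the same ranges had 3555 and 4272 genes and 3.78% and 3.48% mitochondrial counts. Across the cells of a plate, the immediate early score had a Spearman coefficient with the mitochondrial share of -0.13 to -0.11 in LN_HEV, -0.58 to -0.52 in TU_HEV and -0.77 to -0.63 in TU_EC. With genes detected it was 0.10 to 0.16, 0.11 to 0.34 and 0.47 to 0.67. Cells of a plate share their source, library and depth profile, and these coefficients are descriptions. The part of cell quality in the score was not tested, beyond keeping only cells with 2000 or more genes (98.6% of LN_HEV, 95.9% of TU_HEV and 79.3% of TU_EC thinned cells). The mean score then was 0.89 higher in TU_HEV than in TU_EC, in place of 1.05, and 0.091 higher in LN_HEV than in TU_EC, in place of 0.32. The score also followed other cell states. With the NF-kB list (Nfkbia, Tnfaip3, Icam1, Relb, Nfkb2 and Birc3) it was 0.17 to 0.24 in LN_HEV, 0.53 to 0.60 in TU_HEV and 0.51 to 0.65 in TU_EC. With the venous list it was 0.28, 0.35 to 0.52 and 0.08 to 0.30, and with the capillary list 0.17 to 0.20, 0.018 to 0.119 and 0.27 to 0.57. With the interferon list it was -0.045 to 0.194, 0.30 to 0.55 and 0.17 to 0.19, the last under the median gene of TU_EC. That median gene had 0.22, and the venous range of TU_EC spanned it. For the lymph node HEV list it was -0.084 to 0.13, 0.16 to 0.17 and 0.09 to 0.39. The arterial list gave -0.019 to 0.148, 0.04 to 0.16 and 0.14 to 0.41. The tip list gave -0.168 to -0.044, -0.078 to 0.024 and -0.085 to 0.273. The division list gave 0.058 to 0.066, -0.218 to 0.153 and -0.0315 to 0.191.

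**Figure D4:**
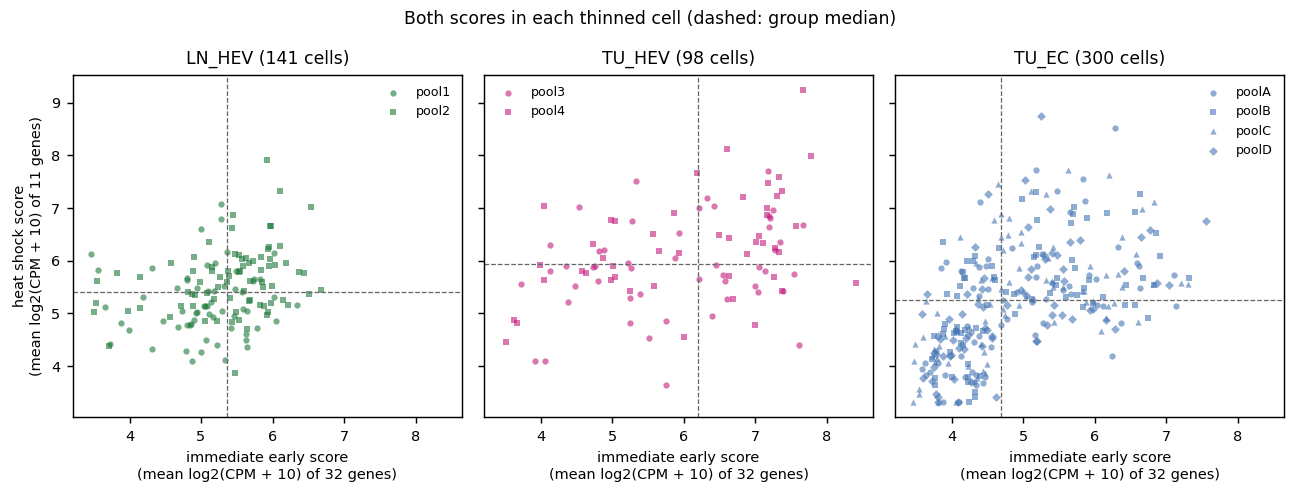
Immediate early score against heat shock score, mean log2(CPM + 10), in each thinned cell of the 3 groups; dashed lines are group medians. LN_HEV cells cluster around 5.36 for the immediate early score, TU_HEV cells spread from 3.52 to 8.40, and TU_EC cells reach to the low end of both scores.

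Whether Fos and Jun genes go together with heat shock genes was asked with pairs of genes. Members at 20 CPM and with a count in 30% of cells of a group were used: 16 immediate early and 8 heat shock genes in LN_HEV, 23 and 8 in TU_HEV, 18 and 8 in TU_EC. Immediate early genes varied together within each plate: the median Spearman coefficient of their pairs was 0.20 in both LN_HEV plates, 0.29 and 0.31 in TU_HEV and 0.30 to 0.36 in TU_EC. Pairs of all features meeting the same level rule had medians of 0.014 to 0.017, 0.040 to 0.054 and 0.089 to 0.124. Heat shock pairs had 0.029 to 0.107 in LN_HEV, 0.132 to 0.160 in TU_HEV and 0.193 to 0.248 in TU_EC. Cross pairs had 0.016 to 0.055, 0.064 to 0.120 and 0.152 to 0.165. The highest immediate early pairs were Fos with Zfp36 in LN_HEV (0.59 in mean), Junb with Egr1 in TU_HEV (0.74) and Fos with Junb in TU_EC (0.72).

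In the tumour groups, Hspa8 and Dnajb1 had higher coefficients with the immediate early genes than the chaperonin genes had. In TU_EC, Fos and Hspa8 had a coefficient of 0.47 to 0.64 over the 4 plates. In TU_HEV, Egr1 and Dnajb1 had 0.50 and 0.77, and Junb and Dnajb1 0.48 and 0.66. These were the highest cross pairs of their groups and were not adjusted for total count or genes detected. The mean over plates of the median coefficient of Dnajb1 with the immediate early members was 0.32 in TU_HEV, 0.27 in TU_EC and 0.12 in LN_HEV, and that of Hspa8 0.29, 0.40 and 0.030. Hspd1 had -0.055 and 0.087 with them in TU_HEV and TU_EC, Hspe1 -0.035 and 0.13, and Hsp90aa1 0.027 and 0.083. In LN_HEV the highest was Bag3, with 0.13. Fosl2 was the AP-1 gene least tied to the rest, 0.13 in TU_HEV and 0.11 in TU_EC, against 0.47 and 0.50 for Fos.

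After the log of the total count and the genes detected were regressed out, immediate early pairs kept medians of 0.18, 0.27 and 0.23 in LN_HEV, TU_HEV and TU_EC. Heat shock pairs in TU_EC went from 0.23 to 0.027 and cross pairs in TU_EC from 0.16 to 0.040, where all features went from 0.11 to 0.012. In TU_HEV the cross pairs were 0.073 and the heat shock pairs 0.11 after that step. The score of the 32 genes against that of the 11 had a coefficient of 0.12 to 0.32 in LN_HEV, 0.22 to 0.42 in TU_HEV and 0.54 to 0.64 in TU_EC, where both also followed genes detected (0.47 to 0.67 and 0.58 to 0.74).

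**Figure D5:**
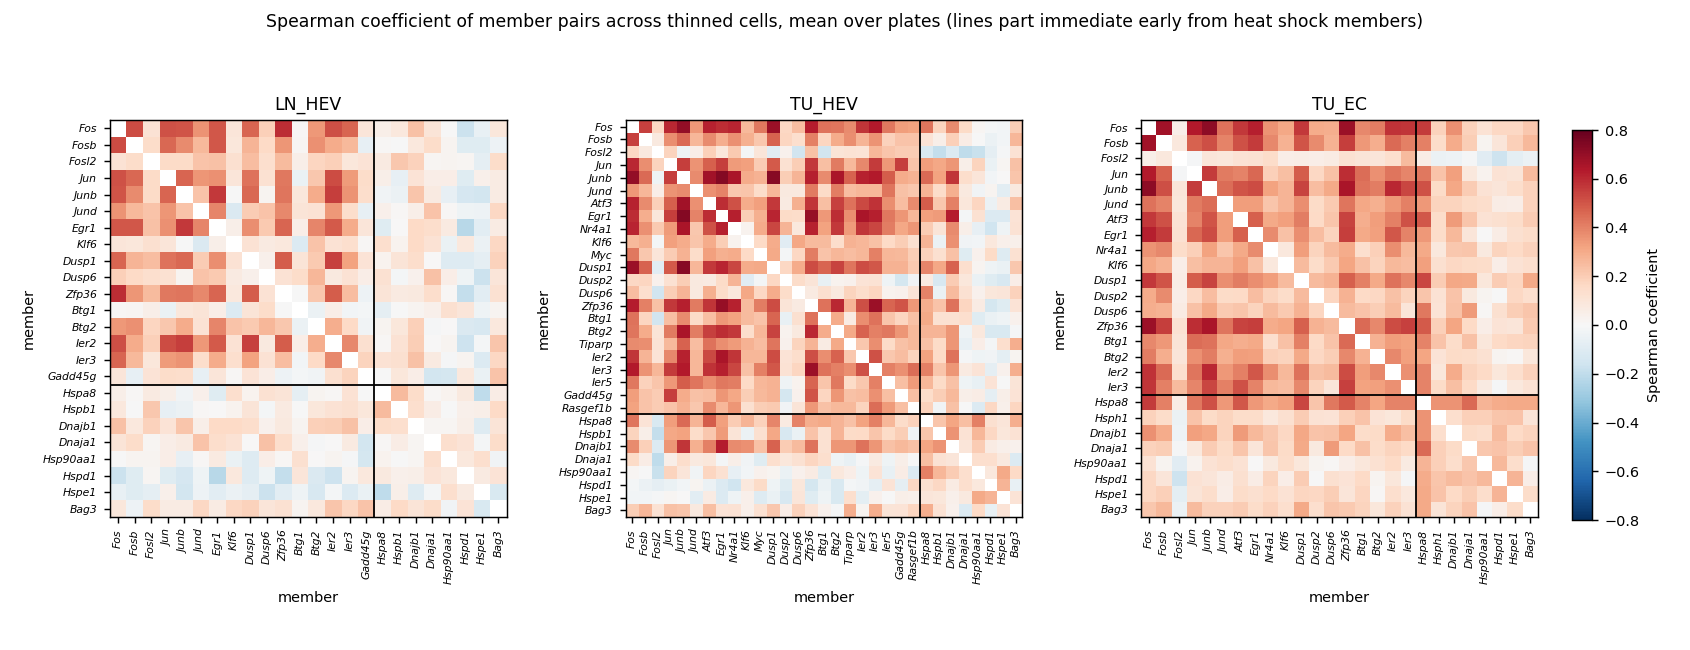
Spearman coefficient of each pair of eligible members across thinned cells, mean over plates, for LN_HEV, TU_HEV and TU_EC; black lines part immediate early from heat shock members. The immediate early blocks are red in all 3 groups, and in the cross blocks the rows of Hspa8 in TU_EC and Dnajb1 in TU_HEV are the reddest.

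The 2 inducible HSP70 genes were mostly counted in the same cells. Their coding sequences are nearly the same, so reads may be shared between them, and the part of this was not tested. Hspa1b was counted in 49 of 52 TU_EC cells with Hspa1a and in 1 cell (0.403%) without, and in TU_HEV in 19 of 20 and 4 of 78. Of the TU_EC cells with Hspa1a, 75.0% (61.1 to 86.0%) had Fos, against 52.0% (45.6 to 58.4%) of those without. In TU_HEV the shares with Fos were 85.0% (62.1 to 96.8%) and 78.2% (67.4 to 86.8%). In reverse, Hspa1a was in 23.2% of TU_EC cells with Fos and 9.85% of those without. The cells with Fos had a median of 3856 genes and 2.67% mitochondrial counts, against 2418 and 4.90%, and the part of this was not tested. Atf3 was in 69.2% of TU_HEV cells with Fos and in 10.0% of those without; in LN_HEV it was in 17.3% of cells with Fos. That is 22 LN_HEV cells, and all 22 LN_HEV cells with Atf3 had Fos.

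Other genes that followed the immediate early score were named by rule from those not among the members. In TU_HEV the 8 highest coefficients with the score were for Nfkbia, the NF-kB inhibitor (mean 0.76), Socs3 (0.66), Ppp1r15a (0.66), Rnd1 (0.65), Sertad1 (0.65), Irf1 (0.64), Map3k8 (0.63) and Csrnp1 (0.60), and the median of all 3745 genes was 0.061. Socs3, a brake on cytokine signalling, led in LN_HEV (0.50), with Nfkbiz (0.48) and Ppp1r15a (0.41) after it. In TU_EC, Nfkbia had a mean coefficient of 0.61, where the median of all 3455 genes was 0.22. The heat shock score in TU_HEV was followed most closely by Hsp25-ps1 (0.53), a feature named as a pseudogene of Hspb1, and reads of the 2 may be shared.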

How the data were processed

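Single CD45-CD31+ mouse cells were sorted into 8 plates of 96 wells and sequenced by Smart-seq2 (23 PCR cycles, 75 bp single-end reads), per the labels' protocols. The authors deposited raw counts per gene, one table for LN_HEV and TU_HEV and one for TU_EC. Per the submitters' processing notes, the tools were Subread 1.4.6-p2, STAR 2.4.1b and FastQC 0.11.4, with no role stated. For annotation and strand setting, the sources used here give nothing. Groups came from the labels. The members and lists were chosen with earlier results of these data known.

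Cells needed 50000 counts, 1000 genes, at most 30% mitochondrial counts (37 genes), 2 of 5 endothelial genes (Pecam1, Cdh5, Tie1, Egfl7, Eng) at 10 CPM, and fewer than 3 of 6 genes of the leukocyte, epithelial and mural lists at 10 CPM. The 11 pool1 libraries were left out. Counts were summed over cells and divided by their total. No model across genes was fitted, because a group is 1 sample; ratios have exact conditional 95% intervals and shares Clopper-Pearson ones. For 0 counts the floor was 3 counts per group. Cells were thinned to 100000 counts (seed 1; 1 count is 10 CPM) for shares, scores and coefficients. No doublet caller was run. Python 3.11.15, NumPy 2.4.6, pandas 2.3.3, SciPy 1.17.1 and matplotlib 3.10.9 were used, and the scripts were tested on simulated data.

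All members are named. Plate values are given for those at 50 CPM in a group and 2-fold apart the same way in every plate pair, and for Fos, Jun, Egr1, Atf3, Hspa1a, Hspa1b, Dnajb1 and Hspa8. From other lists the largest ratios are named, and for likeness the 8 genes with the highest coefficient; a gene of the TU_EC list is not reported here. Alternatives covered scaling, cell filters, thinning, pseudocount, coefficient, fold and plates left out. Those with 2000 genes per cell, without each gene's top cell and with mitochondrial share regressed out were chosen after seeing the data.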

Additional observations from a re-analysis of the deposited data

How the results depend on the processing

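No paired analysis was possible because plates carry no replicate numbers shared between groups and no test was run. Among members called 2-fold, directions reversed for Fosl1 in TU_HEV against TU_EC (log2 1.74, but -3.02 to 2.98 with a plate left out, the lowest without pool3, and -2.26 without the top cell of each group) and for Nr4a2 in LN_HEV against TU_EC (0.30 with the 11 pool1 libraries kept); the cause was not tested. Of the counts, medians, scores and coefficients under the alternatives, 56 values moved by over 1.5 times (counts) or by more than the spread between plates.

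Leaving out each plate gave, for TU_HEV against LN_HEV, medians of 1.43 to 2.25 (immediate early) and 0.73 to 2.03 (heat shock). For TU_HEV against TU_EC they were 1.16 to 1.61 and 0.51 to 0.84, and 1 to 4 members were lower. The 4 were without pool4, where 9.57% of all features were lower, against 5.12% with all plates. For LN_HEV against TU_EC the medians were -0.94 to -0.032 and -0.52 to 0.18 (-0.069 with all plates, so the sign turned), and 1 to 6 members were higher. The 6 were without pool1 and the 1 without pool2, where 20.0% and 10.4% of all features were higher, against 14.7% with all plates. At 4-fold, 16 members were higher in TU_HEV than in LN_HEV (7.52% of all features) and 0 lower (2.09%). Against TU_EC, 10 were higher in TU_HEV (4.23%) and 0 lower (1.78%). In LN_HEV against TU_EC, 0 were higher (4.79%) and 11 lower (6.61%). Without the top cell of each group 2 members were lower in TU_HEV than in TU_EC, and the share of all features was not recomputed for this setting. With the 11 libraries kept, LN_HEV against TU_EC had 5 higher (14.7% of features) and 9 lower (11.4%). TU_HEV against TU_EC medians were 1.17 and 0.35 with size factors, 1.17 and 0.35 without the 20 highest features, and 0.92 for heat shock genes with equal weight per cell.

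Score differences with log2(CPM + 1) were 1.09 (TU_HEV minus LN_HEV, immediate early), 1.52 and 1.20 (TU_HEV minus TU_EC, immediate early and heat shock). With 2000 genes per cell, chosen after seeing the data, TU_HEV minus TU_EC was 0.89 for immediate early genes, and LN_HEV minus TU_EC was 0.091 and -0.092 (immediate early and heat shock), against 0.32 and 0.20 in all cells, so the heat shock difference turned its sign. With inducible heat shock genes alone, TU_HEV minus TU_EC was 0.42 and LN_HEV minus TU_EC was -0.44, again below 0.

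Coefficients of immediate early pairs in LN_HEV were 0.22 (Pearson), 0.21 (unthinned), 0.18 (residuals on total and genes), 0.22 (11 libraries kept), 0.20 (200000 counts), 0.19 (residuals with mitochondrial share too) and 0.20 (2000 genes). The LN_HEV heat shock pairs were 0.0067 with mitochondrial share, and the cross pairs 0.10 with the 11 libraries kept. In TU_HEV the residuals gave 0.27 and, with mitochondrial share, 0.25 for immediate early pairs, 0.11 and 0.10 for heat shock pairs, and 0.041 for cross pairs with mitochondrial share. In TU_EC they gave 0.23 and 0.21, 0.027 and 0.033, and 0.040 and 0.038; with 2000 genes, 0.26, 0.14 and 0.095, and 0.39 for the coefficient between the scores. TU_EC cross pairs were 0.18 unthinned and 0.15 with 200000 counts.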
